A study of Mus musculus with 78 samples.

Results

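S2-78 is a group of male B6C3F1 mice that drank 3.5 g/L dichloroacetic acid (DCA) in water for 32 weeks, starting at 4 weeks of age, and then plain water for 46 weeks. Control-78 is the group of the same sex, strain and age that drank plain water for all 78 weeks. The libraries were chosen by their treatment labels and by being columns of the authors' normalized table, and their raw counts were compared. Of S2-78, 4 of 6 libraries met this rule (mice 43, 44, 45 and 47), and of Control-78, 6 of 6 did (mice 85 to 90), which makes 10 of the 68 libraries in that table and of the 78 libraries in the count table. The authors left out mice 46 and 48 of S2-78. Where the text turns to other groups, these are S1-78 (10 weeks of DCA and 68 weeks of water), S2-32 (32 weeks of DCA, collected at its end) and Control-32 (32 weeks of water), each of male B6C3F1 mice of the same age at the start and, where treated, at the same dose, with 6 of 6 libraries.

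The study gave mice DCA, a by-product of water disinfection, for different lengths of time and asked which changes in the liver persist after it is withdrawn. RNA came from archived liver sections, fixed in formalin and embedded in paraffin, with 1 library per mouse. TempO-Seq joins pairs of probes on their target transcript and sequences the joined product, so a count belongs to a probed gene. The panel probes a selected set of genes, and abundant transcripts may be attenuated in the assay, so levels are compared between libraries and not between genes.

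DCA inhibits the kinases that switch off pyruvate dehydrogenase, and so favors the oxidation of pyruvate in mitochondria. Liver cells that are burdened with misfolded proteins induce chaperones, those of the cytosol through heat shock factors and those of the endoplasmic reticulum (ER) through the unfolded protein response. Hepatic stellate cells and fibroblasts lay down fibrillar collagen when liver tissue is injured, and PPARA, a nuclear receptor for fatty acids, induces the CYP4A enzymes and peroxisomal and mitochondrial fatty acid oxidation.

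The S2-78 libraries held fewer counts than most control libraries. Mouse 43 had 1359409 counts, mouse 44 had 1421620, mouse 45 had 2475996 and mouse 47 had 1187668. The controls had from 2098777 to 4285848 counts, with a median of 3505219.5. Mouse 45 lay within the range of the controls and the other 3 libraries lay below it. The means differed by -1766290 counts (exact two-sided permutation test, p = 0.0143, with 0.00476 as the smallest p that the 210 ways of choosing 4 of 10 libraries allow). Genes with at least 1 count numbered 2087 in mouse 43, 2236 in mouse 44, 2456 in mouse 45 and 2091 in mouse 47, against 2355 to 2535 in the controls (median 2478.5), a difference in means of -249 (exact permutation test, p = 0.0143).

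Over the genes tested, Spearman's correlation of a library's levels with the median of the controls was 0.907 in mouse 43, 0.909 in mouse 44, 0.93 in mouse 45 and 0.781 in mouse 47. Pairs of S2-78 libraries had correlations from 0.652 to 0.936 (median 0.826, 6 pairs), and pairs of controls from 0.825 to 0.972 (median 0.943, 15 pairs), where genes are not independent replicates. The 3 pairs with mouse 47 had 0.679, 0.652 and 0.792, below all pairs of controls, and the other 3 pairs had 0.936, 0.864 and 0.86, within the range of the controls. The 10 most abundant genes took 40.9% of the counts in mouse 43, 35.6% in mouse 44, 20% in mouse 45 and 39.7% in mouse 47, against 33.8% to 54.9% in the controls, so that mouse 45 alone lay outside their range. Mouse 47 stood farthest from the others on the first principal component, which held 45% of the variance, at 82.2 against -35.6 to 33 for the other 9 libraries.

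Expression is given as CPM, counts scaled to the size of the library after TMM normalization. The TMM factors were 1.03, 1.11, 1.43 and 0.98 in mice 43, 44, 45 and 47 and 0.572 to 0.931 in the controls, without overlap. A larger factor gives lower CPM, so the scaling bears on which libraries lie above or below all controls. All 13 groups of the study, 68 libraries in all, were fitted in a single edgeR quasi-likelihood model over the 2205 genes of the authors' filtered table, of 2755 in the count table. Genes were called differentially expressed (DEGs) when the Benjamini-Hochberg adjusted p did not exceed 0.05 and the levels differed by more than 1.5-fold. By this rule 36 of 2205 genes (1.63%) were DEGs, 18 higher in S2-78 (0.816%) and 18 lower (0.816%). The split was 31 higher and 12 lower with RLE scaling, 29 and 11 when upper quartiles set the scale, and 65 and 32 with DESeq2. At an unadjusted p under 0.05 there were 344 genes (15.6%), 178 of them higher and 166 lower. This share is the background for every count of list members at that p below. In 26 genes (1.18%) every S2-78 library lay above every control, and in 44 (2.00%) every S2-78 library lay below every control, and 13 of the DEGs were among these, 6 higher and 7 lower. Over all genes tested the median of the log2 fold changes was 0.0555 with TMM scaling, 0.268 with RLE scaling and 0.239 when upper quartiles set the scale, and 52.7% of genes had a positive value with TMM. These medians were not subtracted, so each fold change depends on the scaling used.

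These calls rest on a spread shared over the 13 groups. With only S2-78 and Control-78 in the model edgeR called 0 genes, with 258 at an unadjusted p under 0.05, and with the 5 groups at 78 weeks it called 1, while DESeq2 with all 13 groups called 97. Thinning every library to the smallest total gave 31 DEGs, 27 of them among the 36, while log2 total count as a covariate gave 44, with 15 of the 36, and all 78 libraries gave 14, with 11 of the 36. Leaving out mouse 43 gave 22 DEGs, 20 of them among the 36, and leaving out mouse 90 of the controls gave 22, with 21 among the 36. Of the 36 DEGs, 11 passed in each of the 10 fits that left out a single library: CHKBCPT1B, COL1A1, CYP4A10 and CYP4A14, which were higher, and AKR7A5, ALDH2, DNAJB1, HERPUD1, SERPINE2, TMED10 and YTHDF1, which were lower.

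**Figure D1:**
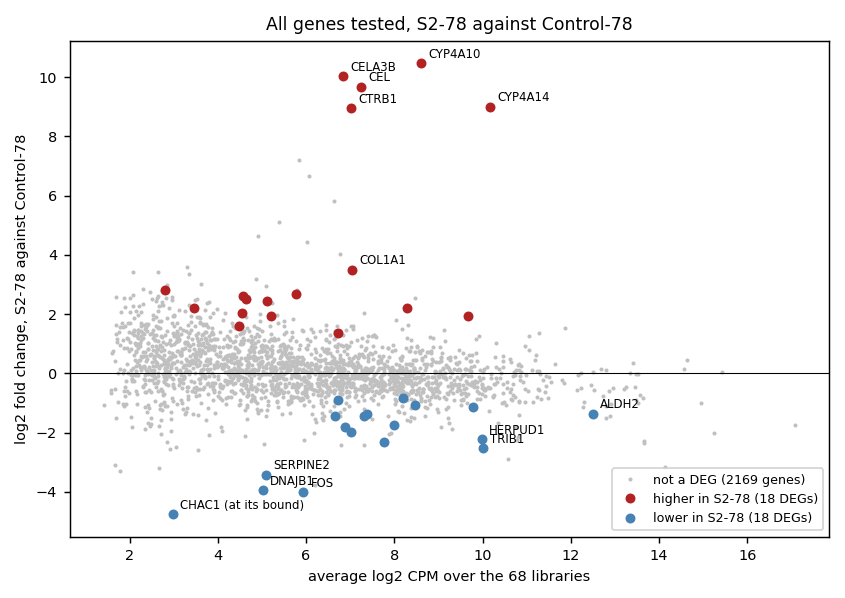
Log2 fold change of S2-78 (n = 4) against Control-78 (n = 6) on the y axis and average log2 CPM over the 68 libraries on the x axis, with a point for each of the 2205 genes tested. The 18 higher DEGs are in red and the 18 lower ones in blue, with CYP4A10 highest at 10.46 and CHAC1, which had no counts in S2-78, drawn at the bound of 26.8-fold lower.

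DNAJB1, HSPB1, BAG3 and FKBP4, chaperones of the cytosol or their partners, were lower in S2-78. DNAJB1, which delivers unfolded proteins to HSP70, had 6.43 CPM in mouse 43, 13.4 in mouse 44, 9.35 in mouse 45 and 6.89 in mouse 47, and 11.7 to 513 CPM in the controls (median 58). Of the S2-78 libraries 3 of 4 lay below every control, mouse 44 lay above controls 85 and 86, and controls 87 and 90 were the highest. DNAJB1 fell by 3.95 on the log2 scale (standard error, SE, 0.72, adjusted p = 0.000682), and by 2.87 without mouse 90. HSPB1, a small heat shock protein, had 80.1, 26.8, 52.1 and 129 CPM in mice 43, 44, 45 and 47, and 220 to 639 CPM in the controls (median 288). The groups did not overlap, with mouse 44 the lowest. HSPB1 fell by 2.31 (SE 0.53, adjusted p = 0.00986), and missed the threshold without mouse 44 (adjusted p = 0.0554) or mouse 45 (adjusted p = 0.0555). Over the 24 alternative fits its log2 fold change ranged from -3.289 to -1.729.

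BAG3, a cochaperone that hands HSP70 clients to autophagy, had 41.5, 85.4, 101 and 37 CPM in mice 43, 44, 45 and 47, and 61.7 to 413 CPM in the controls (median 262). Controls 85 and 86, at 90.2 and 61.7 CPM, lay among the S2-78 values, and the other 4 controls lay above them. BAG3 differed by -1.80 on the log2 scale (SE 0.45, adjusted p = 0.0182), and was not called without mouse 43 (adjusted p = 0.0985), mouse 47 (0.0639) or mouse 90 (0.0636). FKBP4, an HSP90 cochaperone of steroid receptors, had 795, 662, 607 and 513 CPM in mice 43, 44, 45 and 47, and 884 to 1771 CPM in the controls (median 1391). All S2-78 libraries lay below all controls. Its difference of -1.12 (SE 0.31, adjusted p = 0.0457) passed only without mouse 85 among the 10 fits that left out a library, and had adjusted p-values from 0.0597 without mouse 86 to 0.0995 without mouse 47 in the other 9.

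Of 15 tested genes in a list of heat shock factor targets and cochaperones, which was added after these values were seen, 12 had negative and 3 positive log2 fold changes, with a median of -0.926. Those 4 genes were its DEGs, and 7 of its genes, all lower, had an unadjusted p under 0.05. Leaving out a single library moved this median between -1.24 (without mouse 43) and -0.701 (without mouse 45).

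HSPA5 (BiP), HERPUD1 and CHAC1, genes of the unfolded protein response, were lower too. HSPA5, the main HSP70 of the ER lumen, had 131, 120, 189 and 230 CPM in mice 43, 44, 45 and 47, and 122 to 1086 CPM in the controls (median 565). The groups overlapped through controls 85 and 86, at 160 and 122 CPM, while the other 4 controls were above every S2-78 library. HSPA5 differed by -1.74 (SE 0.48, adjusted p = 0.0436), and lost the call without mouse 43 (adjusted p = 0.142), 44 (0.119), 45 (0.0951), 87 (0.0747), 88 (0.0598), 89 (0.14) or 90 (0.101). HERPUD1, a membrane component of ER-associated degradation, had 924, 631, 419 and 356 CPM in mice 43, 44, 45 and 47, and 871 to 4203 CPM in the controls (median 2995). Mouse 43 lay just above the lowest control, mouse 86, and the other 3 libraries lay below all controls. HERPUD1 fell by 2.21 (SE 0.50, adjusted p = 0.00959).

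CHAC1, which degrades glutathione and is induced by the transcription factor ATF4, had 0 counts in all 4 S2-78 libraries and 166 counts in the controls, which had 0.834 to 16.8 CPM (median 8.36). With 3 counts over the group as the limit that 0 counts allow, S2-78 had at most 0.392 CPM against 10.5 CPM in the pooled controls. By this floor the pooled level of CHAC1 was at least 26.8-fold lower. The floor covers counting error only and leaves out the spread between mice, and reads without molecular identifiers are not independent molecules. The 95% interval of its log2 fold change in the fit was -11.13 to -3.673. The call (adjusted p = 0.0191) was lost without mouse 43 (adjusted p = 0.0655), 44 (0.0554) or 45 (0.064).

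Over the 22 tested genes of the unfolded protein response, 18 had negative and 4 positive log2 fold changes, with a median of -0.749, also with CHAC1 at its bound. The 3 DEGs were all lower, and 9 genes had an unadjusted p under 0.05, all lower. Below the threshold of the adjusted p, the lectin chaperone CANX had -0.85 (adjusted p = 0.056, 4 of 4 libraries below all controls), CRELD2 had -2.01 (adjusted p = 0.0755), the disulfide oxidase ERO1LB had -1.57 (adjusted p = 0.139) and SEL1L, an adaptor of ER-associated degradation, had -1.61 (adjusted p = 0.113). The median of the list ranged from -1.06 without mouse 47 to -0.542 with DESeq2.

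Promoters of these genes are shown because the response elements of both pathways are known. The sequences, from a RefSeq table of GRCm38, cover the 250 bases before a start of the gene in that table and were found for 27 of the 36 DEGs and 1649 of the 2205 genes tested. Both strands were searched for the ER stress element, the shorter ER stress element II and the heat shock pair GAANNTTC, and matches are in capitals. The promoter of HSPA5 (chr2:34771840-34772089, plus strand) holds the ER stress element and that of HERPUD1 (chr8:94386179-94386428, plus strand) the ER stress element II. HSPB1 (chr5:135887669-135887918, plus strand) holds the heat shock pair at 2 places and FKBP4 (chr6:128438657-128438906, minus strand) at 1. In the GENCODE annotation HSPA5 begins at 34771970 and FKBP4 at 128438677, so that these windows lie partly within the genes. The capitals of HSPA5 fall inside the gene by that start and those of FKBP4 before it, and 1 of the 2 windows of DNAJB1 (chr8:83608298-83608547) lies within the gene, which begins at 83608193.
HSPA5: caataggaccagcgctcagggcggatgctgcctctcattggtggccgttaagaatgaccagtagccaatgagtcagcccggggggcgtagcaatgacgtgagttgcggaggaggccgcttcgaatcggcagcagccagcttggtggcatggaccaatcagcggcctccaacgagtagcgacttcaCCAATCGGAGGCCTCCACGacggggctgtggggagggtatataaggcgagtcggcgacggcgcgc
HERPUD1: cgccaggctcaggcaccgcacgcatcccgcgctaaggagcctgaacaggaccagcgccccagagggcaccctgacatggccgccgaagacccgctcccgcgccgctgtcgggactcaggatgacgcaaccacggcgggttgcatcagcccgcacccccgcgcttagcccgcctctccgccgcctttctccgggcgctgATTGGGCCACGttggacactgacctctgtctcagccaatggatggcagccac
HSPB1: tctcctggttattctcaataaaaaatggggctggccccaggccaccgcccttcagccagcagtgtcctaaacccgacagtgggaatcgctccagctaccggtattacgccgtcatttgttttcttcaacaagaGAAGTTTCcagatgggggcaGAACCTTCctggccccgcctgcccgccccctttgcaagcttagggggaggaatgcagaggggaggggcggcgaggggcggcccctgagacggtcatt
FKBP4: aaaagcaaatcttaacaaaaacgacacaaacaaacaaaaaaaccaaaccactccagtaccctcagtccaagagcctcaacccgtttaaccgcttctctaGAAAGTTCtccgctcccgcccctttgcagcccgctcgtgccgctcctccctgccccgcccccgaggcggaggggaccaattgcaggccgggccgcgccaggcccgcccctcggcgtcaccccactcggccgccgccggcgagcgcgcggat

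Of all 32851 promoters in the RefSeq table, 0.113% hold the ER stress element, 0.0304% the ER stress element II and 6.69% the heat shock pair. Among the genes tested, 10 hold the ER stress element, 5 with a negative and 5 with a positive log2 fold change (median -0.229). HSPA5, CANX and CRELD2 are among these 10, and HERPUD1 is the only tested gene with the ER stress element II. The heat shock pair was held by 113 tested genes, with a median log2 fold change of 0.0373. Of these, 1 was a higher DEG, GIMAP4, and 3 were lower DEGs, HSPB1, FKBP4 and AKR7A5, the last not a chaperone. In the promoters of DNAJB1 and BAG3 none of these letters were found. A match is a description of letters and not of binding.

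**Figure D2:**
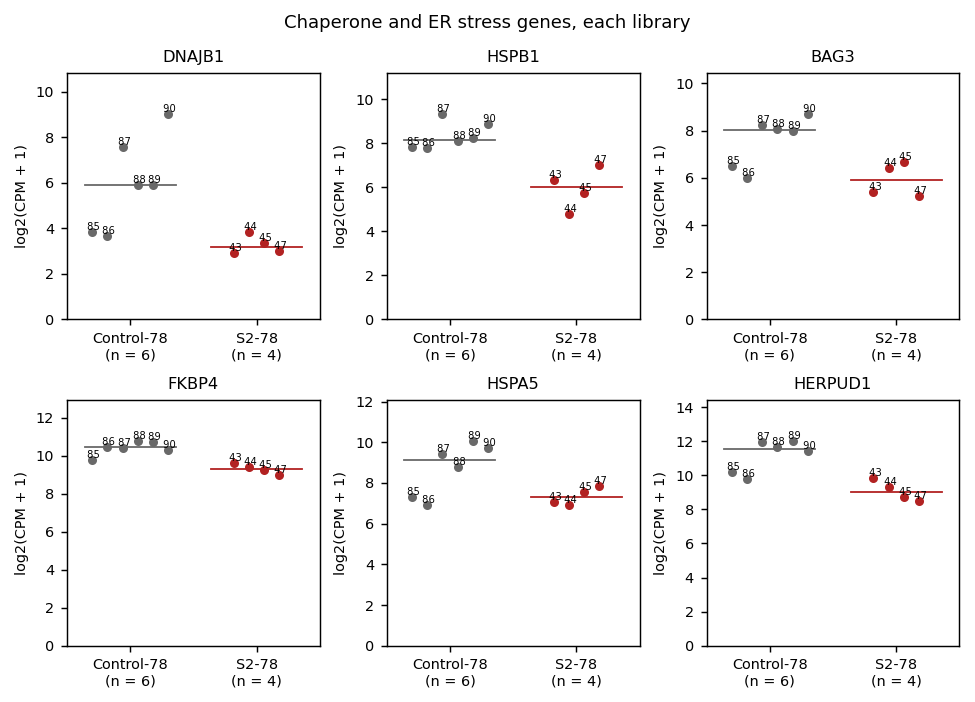
Log2 of CPM plus 1 on the y axis for 6 chaperone and ER stress genes, with a point for each library (its mouse number beside it), Control-78 (n = 6) in grey, S2-78 (n = 4) in red and a line at each group's median. HSPB1 and FKBP4 do not overlap, while controls 85 and 86 lie near the S2-78 libraries for DNAJB1, BAG3, HSPA5 and HERPUD1.

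ALDH2 and TMED10 were lower in every S2-78 liver than in any control. ALDH2, the mitochondrial enzyme that oxidizes acetaldehyde, had 3095, 3938, 4469 and 2459 CPM in mice 43, 44, 45 and 47, and 7666 to 10690 CPM in the controls (median 9005). No library overlapped, and the gap between the highest S2-78 and the lowest control library was larger than the range within S2-78. ALDH2 fell by 1.36 (SE 0.28, adjusted p = 0.00273). TMED10, a cargo receptor of vesicles between the ER and the Golgi, had 230, 322, 274 and 176 CPM in mice 43, 44, 45 and 47, and 441 to 549 CPM in the controls (median 538), so the groups did not overlap. TMED10 fell by 1.06 (SE 0.22, adjusted p = 0.00356). Both genes were called in each fit that left out a library, with ALDH2 between -1.46 and -1.22 and TMED10 between -1.21 and -0.93.

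YTHDF1, a reader of m6A marks on messenger RNA, had 153, 108, 114 and 68.1 CPM in mice 43, 44, 45 and 47, and 144 to 405 CPM in the controls (median 295). Mouse 43 lay above control 86, and all other S2-78 libraries lay below the controls. YTHDF1 fell by 1.36 (SE 0.27, adjusted p = 0.0023), with log2 fold changes from -1.785 to -0.7575 over the 24 alternative fits. AKR7A5, an aldo-keto reductase that is induced by NRF2, had 85.1, 54.8, 55.8 and 32.7 CPM in mice 43, 44, 45 and 47, and 82.5 to 257 CPM in the controls (median 130). Mouse 43 reached just above control 90, the lowest. AKR7A5 fell by 1.45 (SE 0.34, adjusted p = 0.0101). SERPINE2, an inhibitor of thrombin and plasminogen activators, had 3.57, 3.82, 10.8 and 0.862 CPM in mice 43, 44, 45 and 47, and 28.4 to 76.7 CPM in the controls (median 51.6). All controls lay above all S2-78 libraries. SERPINE2 fell by 3.41 (SE 0.79, adjusted p = 0.00986), and by 4.21 without mouse 45, but its adjusted p was 0.522 with all 78 libraries, where mice 46 and 48, left out by the authors, had 40.7 and 128 CPM.

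KLHL21, a substrate adaptor of a CUL3 ubiquitin ligase, had 56.1 to 138 CPM in S2-78 and 138 to 384 CPM in the controls (median 235), with mouse 47 just under the lowest control, and a log2 fold change of -1.43 (adjusted p = 0.0191). It was not called without mouse 43 (adjusted p = 0.0897), mouse 44 (0.0905) or mouse 88 (0.0631). TRIM28, a corepressor that silences retroelements, had 171 to 364 CPM and 363 to 530 CPM in the controls, with mouse 45 just above control 90, and a log2 fold change of -0.82 (adjusted p = 0.0352). Without mouse 43, 44, 47, 87 or 89 its adjusted p was 0.16, 0.0782, 0.0826, 0.0639 and 0.0822. UBE2J1, a ubiquitin-conjugating enzyme of ER-associated degradation, had 62.9 to 105 CPM and 100 to 186 CPM in the controls, with mouse 45 just above control 85, and a log2 fold change of -0.89 (adjusted p = 0.0394). UBE2J1 passed only without mouse 45 and without mouse 85, and its highest adjusted p in the other fits was 0.143, without mouse 43.

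TRIB1 and GADD45A had negative log2 fold changes that depended on mouse 90. TRIB1, a pseudokinase that promotes degradation of CEBP proteins, had 668, 522, 728 and 934 CPM in mice 43, 44, 45 and 47, and 457 to 19280 CPM in the controls (median 1188). Mouse 90 alone had 19280 CPM, the next control had 1757, and all S2-78 libraries lay within the range of the controls. TRIB1 had a log2 fold change of -2.52 (adjusted p = 0.00605), and of -0.58 (adjusted p = 0.438) without mouse 90. GADD45A, a stress sensor of DNA damage, had 61.5, 66.2, 131 and 112 CPM in mice 43, 44, 45 and 47, and 65.4 to 1581 CPM in the controls (median 112). Again mouse 90 was the highest, at 1581 CPM, with the next control at 220. The log2 fold change of -1.97 (adjusted p = 0.0436) was -0.36 (adjusted p = 0.755) without mouse 90. GADD45A was also not called without mouse 43 (adjusted p = 0.143), 44 (0.117), 45 (0.0678), 47 (0.0639) or 85 (0.0514).

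FOS, a component of the AP-1 transcription factor that is induced within minutes, had 8.58, 0.637, 22.7 and 61.2 CPM in mice 43, 44, 45 and 47, and 9.45 to 1126 CPM in the controls (median 56.9). Controls 89 and 90 were high, at 1126 and 966 CPM, and mouse 47 lay above the median of the controls. FOS differed by -4.01 (SE 1.07, adjusted p = 0.0342), and by -5.07 without mouse 47. It missed the threshold without mouse 43 (adjusted p = 0.134), 44 (0.102), 45 (0.09), 89 (0.111, at -3.22) or 90 (0.0905). Among 16 tested immediate-early genes 12 had negative log2 fold changes, with a median of -0.606 that turned to 0.321 without mouse 90. EGR1, another of them, had 0 to 1970 CPM in the controls and a log2 fold change of -3.76 (adjusted p = 0.128), and the signaling inhibitor RGS2 had 1.70 (adjusted p = 0.126).

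Both chains of type I collagen were higher in S2-78. COL1A1, a chain of type I collagen, had 540 CPM in mouse 43, 381 in mouse 44, 142 in mouse 45 and 55.1 in mouse 47, and 9.97 to 42.5 CPM in the controls (median 23.7). Each of these S2-78 libraries lay above every control, with mouse 43 the highest and mouse 47 the lowest. Of the S2-78 libraries that the authors left out, mouse 46 had 61 CPM and mouse 48 had 0, below every control. Mouse 43 also had the highest sum of skeletal muscle markers, 647 CPM against at most 117 CPM in the controls. COL1A1 rose by 3.50 (SE 0.64, adjusted p = 0.000682), and its log2 fold change ranged from 2.96 without mouse 43 to 3.84 over the fits that left out a library, where the highest adjusted p was 0.0138. COL1A2, the partner chain, had 116, 59.2, 42.2 and 6.03 CPM in mice 43, 44, 45 and 47, and 2.5 to 15.7 CPM in the controls (median 12). Mouse 47 lay within the controls and the other 3 libraries above them. COL1A2 differed by 2.45 (SE 0.66, adjusted p = 0.0352), but passed only without mouse 45 and without mouse 47. In the other 8 fits its adjusted p ranged from 0.0506 without mouse 90 to 0.208 without mouse 43, where the log2 fold change was 1.82.

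COL3A1, the chain of type III collagen, had 104, 47.1, 16.1 and 32.7 CPM in mice 43, 44, 45 and 47, and 6.64 to 15.7 CPM in the controls. All its S2-78 libraries lay above the controls, but the log2 fold change of 2.01 had an adjusted p of 0.066. Of the 5 fibrillar collagens tested, all had positive log2 fold changes (median 2.01, from 1.37 without mouse 43 to 2.35 without mouse 45), 2 were DEGs and 4 had an unadjusted p under 0.05. Among 6 other collagens 5 were positive (median 0.985) and 0 were DEGs, with 2 at an unadjusted p under 0.05. COL4A2, a chain of basement membranes, had 1.38 (adjusted p = 0.061) and the fibril regulator COL5A1 had 1.44 (adjusted p = 0.294, with 0 CPM in mouse 47).

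The 8 tested genes of collagen processing and crosslinking had a median of 0.227 (0.0863 with all 78 libraries and 0.406 without mouse 89) with 0 DEGs and 1 at an unadjusted p under 0.05, the crosslinking oxidase LOXL1 (1.41, adjusted p = 0.285). The 9 matrix proteins other than collagens had a median of 0.0439 (-0.215 without mouse 43, -0.334 without mouse 44 and -0.109 without mouse 88), 0 DEGs, and 5 genes at an unadjusted p under 0.05, 2 higher and 3 lower. Of these, the microfibril protein FBN1 had 1.52 (adjusted p = 0.217), the laminin chain LAMA3 had -2.38 (adjusted p = 0.102, all libraries below the controls), the hepatocyte product FN1 had -0.95 (adjusted p = 0.11) and VTN had -0.99 (adjusted p = 0.221). Matrix proteases and their inhibitors had a median of 0.143 over 11 genes (-0.161 without mouse 47 and -0.0469 without mouse 88), with SERPINE2 as the only DEG.

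Markers of stellate cells and fibroblasts are a list that also holds COL1A1, COL1A2 and COL3A1. Of the 10 tested, 5 had positive and 5 negative log2 fold changes, COL1A1 and COL1A2 were the 2 DEGs, and the median of -0.111 turned to 0.0757 with RLE and 0.0393 with upper-quartile scaling, and to 0.00385, 0.165, 0.00893 and 0.0827 without mice 45, 47, 86 and 90. Their summed level was 1540 CPM in mouse 43, 1460 in mouse 44, 497 in mouse 45 and 722 in mouse 47, and 482, 1890, 764, 778, 939 and 597 CPM in controls 85 to 90. ECM1 was the most abundant of them in each library, 1 marker had no counts in mouse 43, 2 had none in mouse 47, and each had counts in all controls. LRAT, which stores retinoids in quiescent stellate cells, had a log2 fold change of 1.36 (adjusted p = 0.401). In bulk tissue fewer or more cells of a type and less or more RNA per cell cannot be told apart.

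CYP4A10 and CYP4A14, hydroxylases of fatty acids and targets of PPARA, were very high in a pair of S2-78 livers and nearly absent in the other pair. CYP4A10 had 5506 CPM in mouse 43, 7776 in mouse 44 and 0 in mice 45 and 47, and 0.604 to 8.34 CPM in the controls (median 1.44). CYP4A14 had 7778 CPM in mouse 43, 10290 in mouse 44, 0 in mouse 45 and 0.862 in mouse 47, and 0 to 54.2 CPM in the controls (median 0.932), of which mouse 86 was the highest. So mice 43 and 44 lay far above all controls for both genes. Mice 45 and 47 lay within the controls for CYP4A14. Their 0 CPM of CYP4A10 cannot be ranked below the lowest control, at 0.604 CPM, since so few counts separate them. CYP4A10 rose by 10.46 on the log2 scale (SE 2.09, adjusted p = 0.0023) and CYP4A14 by 9.0 (SE 2.12, adjusted p = 0.0109), in each case over livers unlike each other. Without mouse 44 the values were 9.61 and 8.20, and without control 86 they were 11.07 and 11.96. Both genes lie on chromosome 4 and are close paralogs, so their probes may share counts.

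The other genes of fatty acid oxidation and PPARA targets moved less. Of 24 tested, 19 had positive log2 fold changes (median 0.405, from 0.00791 with the number of genes with a count as a covariate to 0.686 without mouse 47), the CYP4A pair were the only DEGs, and 4 had an unadjusted p under 0.05, all higher. ACAA1A, a peroxisomal thiolase, had 12090, 8909, 4054 and 246 CPM in mice 43, 44, 45 and 47 against 855 to 5367 CPM in the controls, with a log2 fold change of 1.52 (adjusted p = 0.275). CD36, a fatty acid transporter, had 124, 94.9, 32 and 0 CPM in mice 43, 44, 45 and 47 against 7.56 to 18.4 CPM in the controls (log2 fold change 2.38, adjusted p = 0.0687). ECI1, an isomerase of mitochondrial oxidation, had 1047, 940, 372 and 98.2 CPM in these mice against 174 to 525 CPM (log2 fold change 0.88, adjusted p = 0.392). For each of these 3 genes mice 43 and 44 were the highest of the 4 and mouse 47 the lowest, below all controls. Among fatty acid and triglyceride synthesis genes, 6 of 9 were positive (median 0.376, and -0.128 without mouse 44) with 0 DEGs and 1 gene at an unadjusted p under 0.05, the elongase ELOVL6 (1.28, adjusted p = 0.123).

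CYP3A11, the main CYP3A enzyme of drug metabolism in mouse liver, had 1600, 1938, 1555 and 348 CPM in mice 43, 44, 45 and 47, and 173 to 517 CPM in the controls (median 370). Mice 43, 44 and 45 lay above all controls, and mouse 47 within them. CYP3A11 differed by 1.94 (SE 0.49, adjusted p = 0.0191), and was not called without mouse 43 (adjusted p = 0.0641), 44 (0.0763), 87 (0.0504) or 90 (0.0636). It was the only DEG of 31 tested genes of xenobiotic metabolism, of which 12 were positive and 19 negative. Their median was -0.359 (-0.624 without mouse 43, -0.154 with RLE scaling and 0.0287 when adjusted for log2 total count). Of the 31, 5 had an unadjusted p under 0.05, near the 15.6% of all genes tested. CHKBCPT1B, the probe of a read-through transcript of a choline kinase and a carnitine palmitoyltransferase, had 116, 126, 4.25 and 51.7 CPM in mice 43, 44, 45 and 47, and 6.1 to 25 CPM in the controls (median 10.3). Mouse 45 lay below all controls and the other 3 libraries above them. CHKBCPT1B rose by 2.60 (SE 0.58, adjusted p = 0.00654).

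**Figure D3:**
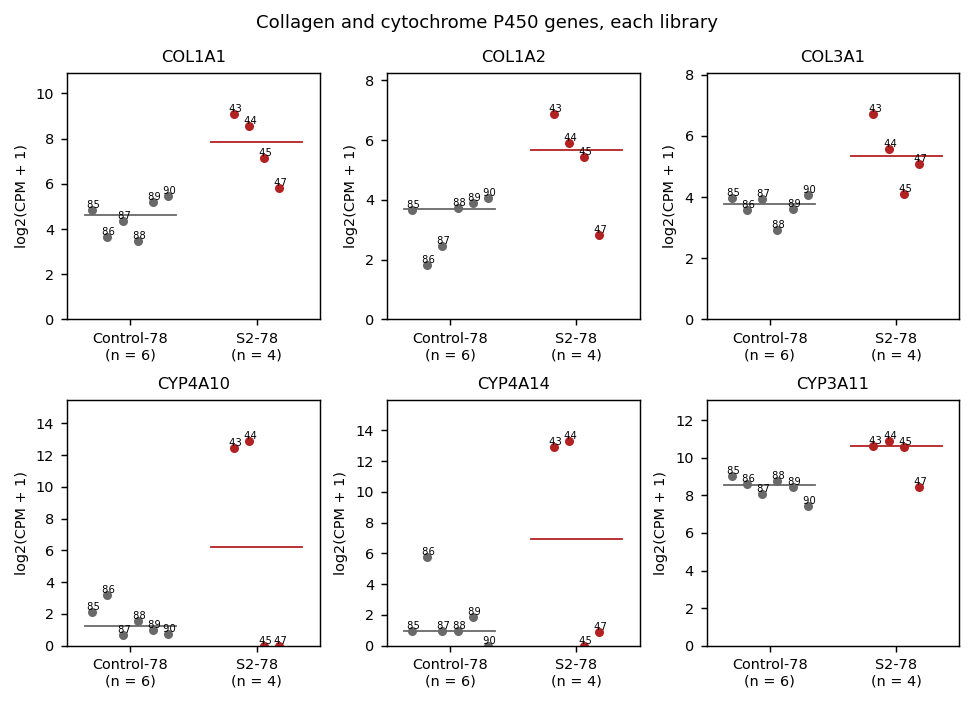
Log2 of CPM plus 1 on the y axis for 3 collagen and 3 cytochrome P450 genes, with a point for each library (its mouse number beside it), Control-78 (n = 6) in grey, S2-78 (n = 4) in red and a line at each group's median. COL1A1 and COL3A1 do not overlap between the groups, and the S2-78 livers split for CYP4A10, with 5506 and 7776 CPM in mice 43 and 44 and 0 in mice 45 and 47.

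The higher DEGs held TNIP1, of the cytokine, chemokine and NF-kB list, and GIMAP4, ARHGAP30 and IL4I1, which belong to no list tested. TNIP1, an inhibitor of NF-kB, had 23.6, 19.8, 103 and 40.5 CPM in mice 43, 44, 45 and 47, and 5.84 to 11.3 CPM in the controls (median 7.92). Every S2-78 library lay above the controls, and mouse 45 was the highest. TNIP1 differed by 2.53 (SE 0.62, adjusted p = 0.0176), and by 1.87 (adjusted p = 0.125) without mouse 45. GIMAP4, a GTPase of lymphocytes, had 96.5, 111, 258 and 104 CPM in mice 43, 44, 45 and 47, and 31.7 to 72.3 CPM in the controls (median 56). The groups did not overlap, and mouse 45 had more than double the level of the other 3. GIMAP4 differed by 1.38 (SE 0.36, adjusted p = 0.0259), and missed the threshold without mouse 45 (0.98, adjusted p = 0.17), 86 (adjusted p = 0.0597), 88 (0.0598) or 90 (0.057).

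ARHGAP30, a gene expressed in blood cells, had 84.3, 38.2, 129 and 22.4 CPM in mice 43, 44, 45 and 47, and 12.5 to 29.9 CPM in the controls. Mouse 47 lay within the controls. Its log2 fold change of 1.92 (adjusted p = 0.0352) passed only without mouse 44, 47 or 87, and the highest adjusted p of the other fits was 0.154, without mouse 45. IL4I1, an amino acid oxidase of myeloid and B cells, had 14.3, 32.5, 55.3 and 39.6 CPM in mice 43, 44, 45 and 47, and 3.35 to 18.5 CPM in the controls. Mouse 43 lay within the controls and the other 3 libraries above them. Its log2 fold change of 1.61 (adjusted p = 0.0191) was lost without mouse 45 (adjusted p = 0.109), 47 (0.0529), 85 (0.0684), 89 (0.0648) or 90 (0.064).

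All 8 tested lymphocyte markers had positive log2 fold changes, with a median of 1.36 and of 0.51 without mouse 45, and 0 were DEGs, with 4 at an unadjusted p under 0.05. Their summed level was 141 CPM in mouse 43, 124 in mouse 44, 860 in mouse 45 and 139 in mouse 47, and 89, 130, 165, 87.8, 147 and 97.1 CPM in controls 85 to 90. Mouse 45 alone lay above the controls. CORO1A was the most abundant marker in mouse 45, at 450 CPM, in mouse 47 and in all controls, PTPRC was in mouse 43 and SASH3 in mouse 44, and 2, 0, 1 and 2 of the markers had no counts in mice 43, 44, 45 and 47. The immunoglobulin light chain gene IGLC2 had a log2 fold change of 2.31 (adjusted p = 0.139), and the lymphoid genes SASH3 and IKZF1 had 1.62 and 1.25 (adjusted p = 0.217 and 0.261).

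Macrophage markers had a median of 0.783 over 8 genes (0.506 without mouse 45, 0.385 with all 78 libraries and 1.67 when adjusted for log2 total count), 7 of them positive, with 0 DEGs and 2 at an unadjusted p under 0.05. Their summed level was 1590, 1330, 4390 and 2600 CPM in mice 43, 44, 45 and 47, and 1100, 1610, 2940, 1760, 1870 and 1520 CPM in controls 85 to 90, with mouse 45 again the highest. LYZ2 led the sum in mice 43, 44 and 87 and MPEG1 in the others, and only mouse 47 had a marker, 1 of 8, at 0 counts. CYBB, the phagocyte oxidase, had 34.3, 33.1, 399 and 4.31 CPM in mice 43, 44, 45 and 47, with a log2 fold change of 2.81 (adjusted p = 0.061), CD68 had 1.53 (adjusted p = 0.249) and the complement gene C1QC had 0.61 (adjusted p = 0.568). The part of mouse 45's immune cell markers in the calls of TNIP1, GIMAP4, ARHGAP30 and IL4I1 was not tested beyond the fits without that mouse.

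Of 28 tested cytokine, chemokine and NF-kB genes, 19 were positive (median 0.574, and 0.041 without mouse 45), and TNIP1 was the only DEG. The chemokine CCL9 had 475, 589, 678 and 567 CPM in mice 43, 44, 45 and 47, all above the controls (264 to 408 CPM), with a log2 fold change of 0.73 (adjusted p = 0.145). LTB had 2.41 (adjusted p = 0.241) and the chemokine receptor CCR2 had 1.90 (adjusted p = 0.294). Interferon and antigen presentation genes were positive in 19 of 25 (median 0.521, and 0.102 without mouse 45), with 0 DEGs and 3 at an unadjusted p under 0.05, such as USP18 (1.64, adjusted p = 0.25).

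Among the remaining higher DEGs, AP2M1, a subunit of the clathrin adaptor, had 566, 221, 345 and 1206 CPM in mice 43, 44, 45 and 47, and 80.7 to 204 CPM in the controls (median 110). All S2-78 libraries lay above the controls, with mouse 47 the highest. AP2M1 differed by 2.21 (SE 0.48, adjusted p = 0.00605), and by 1.57 (adjusted p = 0.0799) without mouse 47. Its log2 fold change ranged from 1.089 to 2.508 over the 24 alternative fits. SYTL2, an effector of RAB27 in secretion, had 20.7, 16.6, 14.2 and 12.9 CPM in mice 43, 44, 45 and 47, all above the controls (1.22 to 4.75 CPM, median 3.88), and a log2 fold change of 2.19 (adjusted p = 0.0176). It was not called without mouse 43 (adjusted p = 0.0641). ZGRF1, a helicase, had 18.6, 24.2, 5.67 and 31 CPM in mice 43, 44, 45 and 47, and 0.302 to 6.67 CPM in the controls, so that only mouse 45 lay within them. Its log2 fold change of 2.82 (adjusted p = 0.0457) passed only without mouse 45 and without mouse 86, and the highest adjusted p elsewhere was 0.112, without mouse 87.

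Probes for a pair of RIKEN transcripts were DEGs too. A130071D04RIK had 88.6, 56.1, 40.5 and 20.7 CPM in mice 43, 44, 45 and 47, and 4.88 to 20.2 CPM in the controls, without overlap, and a log2 fold change of 2.04 (adjusted p = 0.0161). It was not called without mouse 43 (1.64, adjusted p = 0.132) or mouse 88 (adjusted p = 0.0514). The other RIKEN probe had 392, 162, 29.8 and 31.9 CPM in mice 43, 44, 45 and 47, and 14.2 to 36.9 CPM in the controls. Mice 43 and 44 lay above all controls and mice 45 and 47 within them. Its log2 fold change of 2.68 (adjusted p = 0.000682) was 1.64 (adjusted p = 0.0807) without mouse 43.

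Mouse 47 carried high counts of genes that pancreatic acinar cells make for digestion. CEL, a lipase, had 0.715, 0, 0.567 and 6615 CPM in mice 43, 44, 45 and 47, CELA3B, an elastase, had 0, 2.55, 2.55 and 4667 CPM, and CTRB1, a chymotrypsinogen, had 12.2, 0, 1.98 and 2006 CPM. The controls had at most 4.6 CPM of CEL, 3.94 of CELA3B and 2.44 of CTRB1, and apart from CTRB1 in mouse 43 the other S2-78 libraries lay within these ranges. Their log2 fold changes were 9.67, 10.04 and 8.94 (adjusted p = 0.0191, 0.0147 and 0.0394), and without mouse 47 they were -2.01, 0.75 and 2.13 (adjusted p = 0.819, 0.915 and 0.731). Without mouse 45 they were 10.29, 10.65 and 9.57, and CELA3B had 11.53 without mouse 89. CEL was also not called without mouse 87 (adjusted p = 0.0504), 88 (0.055) or 90 (0.0594), and CTRB1 was not called without any 1 of the 6 controls (0.0613 to 0.0855).

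Of 10 tested acinar markers 9 had positive log2 fold changes, with a median of 6.23 that was -0.0298 without mouse 47, and the 3 genes above were its DEGs. The summed level of these markers was 251 CPM in mouse 43, 371 in mouse 44, 175 in mouse 45 and 15600 in mouse 47, and 448, 396, 661, 520, 620 and 515 CPM in controls 85 to 90. AMY1, the amylase that liver also makes, led the sum in each library except mouse 47, where CEL led, and 4, 6, 2 and 0 of the 10 markers had no counts in mice 43, 44, 45 and 47. Among other members, the lectin ZG16 had 814 CPM in mouse 47 (log2 fold change 6.65, adjusted p = 0.061), CPA1 had 189 CPM (5.80, adjusted p = 0.179), CELA2A had 269 CPM (4.42, adjusted p = 0.172), and amylase probes such as AMY2A4 (880 CPM in mouse 47) may share counts within the family. Without mouse 47 the fit gave 44 DEGs, 25 of them among the 36, so the other calls did not all rest on this liver, which was also the one whose levels correlated least with the controls.

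Skeletal muscle markers were high in mouse 43. Their summed level over 6 tested genes was 647 CPM in mouse 43, 68.8 in mouse 44, 76.2 in mouse 45 and 56 in mouse 47, and 91.5, 25, 60.4, 20.9, 40.8 and 117 CPM in controls 85 to 90. ACTA1 led the sum in mice 43, 44 and 45 and TNNI2 in mouse 47, and 1, 3, 0 and 2 markers had no counts in mice 43, 44, 45 and 47. The median log2 fold change was 1.58, and 0.292 without mouse 43, with 0 DEGs. At an unadjusted p under 0.05 there were 3 genes, 2 higher and 1 lower, NEB (-2.49). The creatine kinase CKM had 159 CPM in mouse 43 and 0 in mouse 44 (log2 fold change 5.12, adjusted p = 0.0864), and the troponin TNNI2 had 134 and 0 CPM (4.65, adjusted p = 0.0627). Mouse 43 was also the highest library for COL1A1, COL1A2 and COL3A1, and without it COL1A1 was still called. The part of these markers in the values of mouse 43 was not tested.

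Endothelial markers lay above the controls in all 4 S2-78 livers when summed, at 477, 413, 293 and 337 CPM in mice 43, 44, 45 and 47 against 232, 290, 267, 259, 270 and 254 CPM in controls 85 to 90. Of 8 markers 7 had positive log2 fold changes (median 0.621, from 0.259 without mouse 44 to 0.968 without mouse 45), 0 were DEGs and 2 had an unadjusted p under 0.05. RAMP2 led the sum in mice 43 and 47 and SDPR, a caveola protein, in mice 44 and 45, and 0, 0, 1 and 2 markers had no counts in mice 43, 44, 45 and 47. SDPR had 92.2, 86.6, 115 and 45.7 CPM in mice 43, 44, 45 and 47 and 21.7 to 50.4 CPM in the controls, so that mouse 47 alone lay within them, and TEK, the angiopoietin receptor, had a log2 fold change of 0.88 (adjusted p = 0.275).

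Erythroid markers had lower sums in 3 S2-78 livers, at 407, 670, 441 and 1510 CPM in mice 43, 44, 45 and 47 against 987, 2010, 1610, 1800, 971 and 1310 CPM in controls 85 to 90. Mouse 47 alone lay within the controls. Over 5 genes the median was -0.755 (-0.467 without mouse 43), with 1 positive, 0 DEGs and 1 at an unadjusted p under 0.05, and the heme synthesis enzyme ALAS2 had 189, 132, 242 and 302 CPM in mice 43, 44, 45 and 47, all below the controls (310 to 858 CPM, log2 fold change -1.29, adjusted p = 0.246). ALAS2 led the sum in mice 43 and 45 and HBA-A2, a globin whose probe may also take counts of its paralog, in mice 44 and 47, and 1, 2, 0 and 1 markers were at 0 counts.

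Markers of hepatocytes, the labeled tissue's main cells, were abundant in all libraries. Their sum over 15 genes was 136000, 121000, 56500 and 73700 CPM in mice 43, 44, 45 and 47, and 77000 to 116000 CPM in the controls, so that mice 43 and 44 lay above and mice 45 and 47 below the controls. FABP1 led the sum in mice 43, 44 and 45 and APOA1 in mouse 47, and only mouse 47 had a marker, 1 of 15, at 0 counts. The median log2 fold change was -0.00833 with TMM, 0.176 with RLE and 0.154 with upper-quartile scaling (0.136 without mouse 45), with 0 DEGs and 1 gene at an unadjusted p under 0.05.

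Bile duct, neutrophil and neural markers also gave 0 DEGs. Cholangiocyte markers had a sum over 5 genes of 146, 55.4, 109 and 95.6 CPM in mice 43, 44, 45 and 47 against 22.3 to 424 CPM in the controls, with SPP1 leading in mice 43, 44 and 45 and KRT19 in mouse 47, 2, 1, 0 and 0 markers at 0 counts, and a median of 0.892 that was -0.171 without mouse 47. The 2 tested neutrophil markers, led by LCN2, had a sum of 34.3, 31.2, 917 and 62.9 CPM in mice 43, 44, 45 and 47 against 25 to 1410 CPM in the controls and a median of -1.41 that was -4.78 without mouse 45 and -0.458 with all 78 libraries, with 1, 1, 0 and 1 markers at 0 counts. Neural markers had a sum over 10 genes of 81.5, 101, 216 and 490 CPM in mice 43, 44, 45 and 47 against 98.3 to 282 CPM in the controls, so that mouse 47, led by LSAMP at 288 CPM, lay above them. Of these markers 4, 1, 0 and 3 had no counts in mice 43, 44, 45 and 47, and the median of 0.193 was -0.0317 without mouse 45 and -0.337 without mouse 47.

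**Figure D4:**
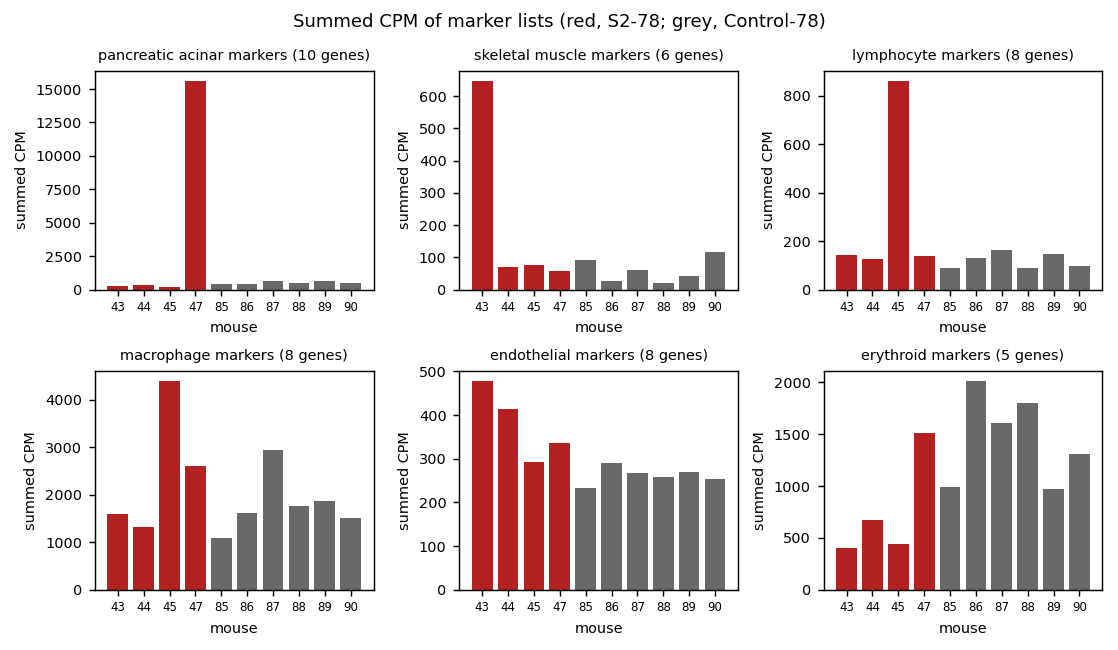
Summed CPM of 6 marker lists on the y axis for each library on the x axis, labeled by mouse number, with S2-78 (n = 4) in red and Control-78 (n = 6) in grey. Acinar markers reach 15600 CPM in mouse 47, muscle markers 647 CPM in mouse 43 and lymphocyte markers 860 CPM in mouse 45, while each of the 4 S2-78 livers lies above the controls for endothelial markers.

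All 13 tested acute phase genes were negative, with a median of -1.05 (-1.97 without mouse 44 and -0.348 when adjusted for log2 total count), 0 DEGs and 5 at an unadjusted p under 0.05. SERPINA3K, a serine protease inhibitor, had 31310, 18790, 7158 and 3898 CPM in mice 43, 44, 45 and 47 against 27770 to 103800 CPM in the controls (log2 fold change -2.01, adjusted p = 0.172). The pentraxin APCS had -1.80 (adjusted p = 0.227) and the fibrinogen chain FGB had -2.25 (adjusted p = 0.133). Complement genes were negative in 12 of 17 (median -0.772, and -0.261 when adjusted for log2 total count) with 0 DEGs and 7 at an unadjusted p under 0.05, all lower. C9, which forms the membrane attack pore, had 2685, 2251, 5264 and 14630 CPM in mice 43, 44, 45 and 47 against 14360 to 62920 CPM in the controls (log2 fold change -2.30, adjusted p = 0.104), and C8B, C8A and CLU had -1.87, -0.90 and -0.88 (adjusted p = 0.139, 0.275 and 0.126).

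Coagulation factors were negative in 12 of 16 (median -0.526, -0.27 with RLE and -0.295 with upper-quartile scaling, and 0.206 when adjusted for log2 total count) with 0 DEGs. Of the 16, 3 had an unadjusted p under 0.05, near the 15.6% of all genes tested. F5, the cofactor of thrombin formation, had 126, 126, 208 and 167 CPM in mice 43, 44, 45 and 47, all below the controls (242 to 634 CPM), with a log2 fold change of -1.49 (adjusted p = 0.0598). F12 was also below all controls in each library (-0.83, adjusted p = 0.161), and F11 had -0.86 (adjusted p = 0.324). Serpins were negative in 9 of 10 (median -0.929, -1.46 without mouse 44 and -0.0998 when adjusted for log2 total count), with SERPINE2 as the only DEG.

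Male-biased liver genes were negative in 14 of 15 tested (median -0.904, -1.47 without mouse 43 and -0.319 when adjusted for log2 total count) with 0 DEGs. Of the 15, 3 had an unadjusted p under 0.05, near the 15.6% of all genes tested. MUP3, a major urinary protein whose paralogs may share counts, had 7460, 8206, 1160 and 2349 CPM in mice 43, 44, 45 and 47, all below the controls (11960 to 16380 CPM), with a log2 fold change of -1.51 (adjusted p = 0.362). Female-biased genes were positive in 5 of 7 (median 1.29, and 0.345 without mouse 44), with 0 DEGs and 3 at an unadjusted p under 0.05, 2 higher and 1 lower. The lower one, CYP2B10, had -2.12 (adjusted p = 0.294). CYP2C39, of the arachidonate-oxidizing CYP2C enzymes, had 559 CPM in mouse 44 and 37.4 to 104 CPM in the other 3 livers (log2 fold change 1.60, adjusted p = 0.217), CYP2C38 had 1.29 (adjusted p = 0.47) and SULT3A1 had 2.94 (adjusted p = 0.302).

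Cell cycle genes were positive in 37 of 45 tested (median 0.858, from 0.405 without mouse 44 to 1.15 without mouse 86), with 0 DEGs and 10 at an unadjusted p under 0.05, all higher. In 4 of the 45 every S2-78 library lay above every control. Among all 2205 genes, 26 (1.18%) did so, and 178 were higher at an unadjusted p under 0.05. Among these, the kinesin KIF18B had 27.2, 19.1, 11.1 and 10.3 CPM in mice 43, 44, 45 and 47 against 0 to 3.32 CPM in the controls (log2 fold change 3.41, adjusted p = 0.15), and the kinetochore gene NDC80 had 9.29, 10.8, 7.08 and 6.03 CPM against 0 to 3.05 CPM (3.42, adjusted p = 0.172). The replication helicase subunit MCM6 had 2.36 (adjusted p = 0.114) and CCNA2, a cyclin, had 1.34 (adjusted p = 0.207). Targets of p53 and apoptosis genes had a median of 0.0951 over 34 genes, (-0.0216 without mouse 47), with GADD45A as the only DEG. The nuclease gene AEN lay above all controls in each S2-78 library (0.93, adjusted p = 0.223), TRP53INP2 lay below them in each (-1.14, adjusted p = 0.141) and BBC3 had 1.31 (adjusted p = 0.144).

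Genes of cholesterol synthesis were negative in 13 of 16 (median -0.596, and -0.384 without mouse 44) with 0 DEGs and 3 at an unadjusted p under 0.05. EBP, a sterol isomerase, had 75.1, 126, 25.8 and 170 CPM in mice 43, 44, 45 and 47 against 59.1 to 532 CPM in the controls (log2 fold change -1.43, adjusted p = 0.208). INSIG1, which holds the sterol sensor in the ER, had 420, 278, 461 and 158 CPM in mice 43, 44, 45 and 47 against 422 to 1258 CPM (-1.31, adjusted p = 0.0831), and the sterol-regulated gene TMEM97 had -0.72 (adjusted p = 0.174). Bile acid genes had a median of -0.256 over 13, which was 0.0162 with RLE scaling and 0.0489 without mouse 47, with 0 DEGs and 4 at an unadjusted p under 0.05. CYP8B1, the sterol hydroxylase that sets the share of cholic acid, lay below all controls in each library at 826, 1078, 608 and 724 CPM in mice 43, 44, 45 and 47 (-1.39, adjusted p = 0.27), BAAT had -0.94 (adjusted p = 0.236), SLC10A2 had -2.25 (adjusted p = 0.116) and the bile acid receptor NR1H4 had 1.64 (adjusted p = 0.32).

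Genes of glucose and energy metabolism gave 0 DEGs. Glycolysis and gluconeogenesis genes were positive in 11 of 15 (median 0.545, and -0.00606 without mouse 47). Their 2 genes at an unadjusted p under 0.05 were GAPDH, which was higher, and ALDOA, which was lower (-1.115, adjusted p = 0.2748). GAPDH, a glycolytic enzyme, had 1904, 2298, 632 and 520 CPM in mice 43, 44, 45 and 47 against 371 to 864 CPM in the controls (log2 fold change 1.16, adjusted p = 0.053). Genes of pyruvate dehydrogenase and the TCA cycle, the pathway that DCA acts on, had a median of 0.117 over 9 genes. Of these, 0 had an unadjusted p under 0.05, and the median was -0.0305 without mouse 43, -0.00227 without mouse 44 and 0.383 without mouse 47. Oxidative phosphorylation genes were negative in 14 of 18 (median -0.272, -0.0413 without mouse 45 and -0.0189 with RLE scaling), with 1 at an unadjusted p under 0.05, the cytochrome oxidase subunit COX6B1, which had 1255, 1300, 223 and 119 CPM in mice 43, 44, 45 and 47 against 244 to 507 CPM (1.13, adjusted p = 0.117). Glycogen genes were negative in 7 of 9 (median -0.261, 0.0362 without mouse 47 and 0.0513 when adjusted for log2 total count), with 0 at an unadjusted p under 0.05.

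Targets of NRF2, the sensor of electrophiles, had a median of -0.0977 over 28 genes, which was 0.0876 with RLE and 0.0496 with upper-quartile scaling, 0.104 without mouse 47 and 0.00629 without mouse 87, and AKR7A5 was the only DEG. GCLM, a subunit of the enzyme that starts glutathione synthesis, had 109, 140, 125 and 144 CPM in mice 43, 44, 45 and 47, all below the controls (212 to 365 CPM), with a log2 fold change of -1.02 (adjusted p = 0.0671). NFE2L2, which encodes NRF2, had 1.01 (adjusted p = 0.145), SQSTM1 had -1.21 (adjusted p = 0.151), and SRXN1 had -2.40 (adjusted p = 0.0773) with 2911 CPM in control 90 and 64.5 to 578 CPM in the others. Glutathione S-transferases had a median of -0.046 over 10 genes, which was 0.113 with RLE and 0.0666 with upper-quartile scaling and 0.37, 0.142 and 0.0246 without mice 47, 85 and 90, with 0 DEGs. The 2 at an unadjusted p under 0.05 were GSTM3, which was higher (2.04, adjusted p = 0.222), and GSTT3, which was lower (-1.171, adjusted p = 0.2465). Sulfotransferase and glucuronosyltransferase genes were positive in 9 of 14 (median 0.517, from 0.0334 without mouse 44 to 0.854 without mouse 47), with 0 DEGs and 3 at an unadjusted p under 0.05, such as UGT1A9 (3.59, adjusted p = 0.12) and UGT1A5 (1.21, adjusted p = 0.114), which share exons.

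Of the genes that the study names for expression, this edgeR fit called COL1A1 in S2-78 and no other. The study, which used DESeq2, reports SDPR (Cavin2) as differentially expressed at all timepoints. It also reports COL1A1, COL4A1 and CEBPB as altered in S1 and S2 samples. SDPR had a log2 fold change of 1.15 in S2-78 and was not called. IRS1, the docking protein of the insulin receptor, had 42.9, 58, 66.9 and 33.6 CPM in mice 43, 44, 45 and 47, all below the controls (71.6 to 177 CPM), with a log2 fold change of -1.35 (adjusted p = 0.0535). CTNND1, a catenin of adherens junctions, had 2035, 1508, 3964 and 4109 CPM in mice 43, 44, 45 and 47, all above the controls (904 to 1487 CPM), with a log2 fold change of 1.36 (adjusted p = 0.0671). CEBPB, a transcription factor of the acute phase, had 3895, 3229, 8576 and 33080 CPM in mice 43, 44, 45 and 47 against 6006 to 22700 CPM, so that mice 43 and 44 lay below and mouse 47 above all controls (-0.47, adjusted p = 0.727). COL4A1 had 58.6, 63.1, 35.7 and 9.48 CPM in these mice, with mouse 47 within the controls, HES1 had -0.33 (adjusted p = 0.744), SERPINA3N had -0.90 (adjusted p = 0.707) and SERPIND1 had -0.63 (adjusted p = 0.456). Of 25 growth hormone, insulin and IGF signaling genes 16 were negative (median -0.171, -0.356 without mouse 43 and 0.0228 with RLE scaling), with 0 DEGs, and in this list IGFBP6 (2.16, adjusted p = 0.104) lay above and IRS1 below all controls in each S2-78 library.

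Other lists gave 0 DEGs. TGF-beta and SMAD signaling genes had a median of -0.108 over 12, which was 0.103 with RLE and 0.085 with upper-quartile scaling and 0.0799 and 0.0276 without mice 85 and 87, with 2 genes at an unadjusted p under 0.05. Of these the activin subunit INHBA had 22.2, 38.9, 273 and 2735 CPM in mice 43, 44, 45 and 47 against 70 to 160 CPM in the controls, so that mice 43 and 44 lay below and mice 45 and 47 above them, and ID2, a SMAD target, had a log2 fold change of -1.31 (adjusted p = 0.217). Markers of liver tumors had a median of -0.114 over 14, which was 0.109 with RLE and 0.088 with upper-quartile scaling and 0.0262, 0.0147 and 0.207 without mice 45, 85 and 90, with 2 at an unadjusted p under 0.05. WNT and beta-catenin genes had 0.18 over 13 (-0.0451 without mouse 47) with 1, clock genes had -0.269 over 6 (0.0671 without mouse 47 and 0.0682 without mouse 85) with 1, and HIF1A targets had -0.402 over 10 (-0.128 without mouse 90) with 0 at an unadjusted p under 0.05.

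S2-78 was next compared with S1-78, which had the same age and less DCA, to see where a longer exposure and a shorter recovery differ. Only CYP4A10 and CYP4A14 were DEGs (0.0907% of genes) and were higher by 9.48 (adjusted p = 0.0267) and 9.72 (adjusted p = 0.0369), and there were 171 genes at an unadjusted p under 0.05. In S1-78, CYP4A10 had 0 to 15.7 CPM and CYP4A14 had 0 to 11.2 CPM, so mice 43 and 44 of S2-78 lay far above all 6 S1-78 livers for both genes. Without mouse 43 or mouse 44 edgeR called 0 genes (149 and 193 at an unadjusted p under 0.05), and without mouse 45 or mouse 47 it called 6 and 5. With only these groups in the model, or with log2 total count as a covariate, it also called 0 genes (99 and 165 at an unadjusted p under 0.05), while DESeq2 called 4. The comparisons of S2-78 and of S1-78 with Control-78 share their 6 controls, so each is given by its own levels: COL1A1 had a median of 241 CPM in S1-78 (63.8 to 970) and 262 in S2-78, HSPB1 had 77.3 CPM (23.2 to 247) and 66.1, and HERPUD1 had 1500 CPM (471 to 2570) and 525.

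The change at the end of 32 weeks of DCA, S2-32 against Control-32, shares no library with that of S2-78. Of the 36 DEGs of S2-78, 25 (69.4%) had the same sign there, 11 of 18 higher (61.1%) and 14 of 18 lower ones (77.8%), against 1152 of all 2205 genes (52.2%). COL1A1 had a median of 296 CPM in S2-32 (185 to 628) and 41.6 in Control-32 (26.5 to 111), without overlap, a log2 fold change of 2.72 at 32 weeks (adjusted p = 0.0033). HSPB1 had a median of 45.7 CPM in S2-32 (at most 192) and 334 in Control-32 (231 to 631), again without overlap, a log2 fold change of -2.24 (adjusted p = 0.0022). CYP4A14 had a median of 7460 CPM in S2-32 (2.33 to 10600) and 9.77 in Control-32 (0 to 3740), so that the groups overlapped (2.41, adjusted p = 0.28). The interaction values of these genes, S2-78 change minus S2-32 change, were 0.78 for COL1A1 (adjusted p = 0.602), -0.07 for HSPB1 (adjusted p = 0.96) and 6.59 for CYP4A14 (adjusted p = 0.138).

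The changes of S2-78 and S2-32 differed in 11 genes (0.499%), 7 with a higher and 4 with a lower change in S2-78 than in S2-32, and 405 genes had an unadjusted p under 0.05. DNAJB1 had a median of 20.3 CPM in S2-32 (12.1 to 45.3) and 18.4 in Control-32 (10.6 to 29.8), and at 78 weeks 8.12 in S2-78 (6.43 to 13.4) and 58 in the controls (11.7 to 513). The median of S2-78 was thus below those of both groups at 32 weeks, and that of Control-78 above them. Its changes differed by -4.19 (adjusted p = 0.0164), and those of HERPUD1, with a median of 830 CPM in S2-32 and 951 in Control-32, by -2.40 (adjusted p = 0.0592). YTHDF1 differed by -1.41 (adjusted p = 0.0404), with 140 CPM in S2-32 and 149 in Control-32. INSIG1 was 649 CPM in S2-32 (175 to 724) and 259 in Control-32 (120 to 335), the opposite direction to that at 78 weeks, a difference of -2.54 (adjusted p = 0.0164).

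The changes of TNIP1 differed by 3.59 (adjusted p = 0.0254), with 10.1 CPM in S2-32 (4.39 to 13.6) and 14.6 in Control-32 (8.85 to 39.3), and A130071D04RIK by 2.77 (adjusted p = 0.0328). The cell cycle gene CDCA4 differed by -4.39 (adjusted p = 0.0248), with 3.94 to 11.7 CPM in S2-32 against 0 to 1.44 CPM in Control-32. AXIN1, a scaffold of the complex that degrades beta-catenin, differed by 2.81 (adjusted p = 0.045), with 108 to 137 CPM in S2-32 against 195 to 1320 CPM in Control-32, a change of -2.63 at 32 weeks, while S2-78 differed by 0.18 (adjusted p = 0.915) from its controls. CELA3B differed by 16.26 (adjusted p = 0.0164), from 10.04 in S2-78, where mouse 47 had 4667 CPM and the others at most 2.55, and -6.22 in S2-32, with 0 to 0.389 CPM against 0 to 33.9 CPM in Control-32. Without mouse 47 edgeR called 0 genes in this comparison, with 208 at an unadjusted p under 0.05, while without mouse 43, 44 or 45 it called 42, 56 and 49. With RLE scaling 51 genes were called, with only these groups in the model 6, with log2 total count as a covariate 1, and with DESeq2 126.

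**Figure D5:**
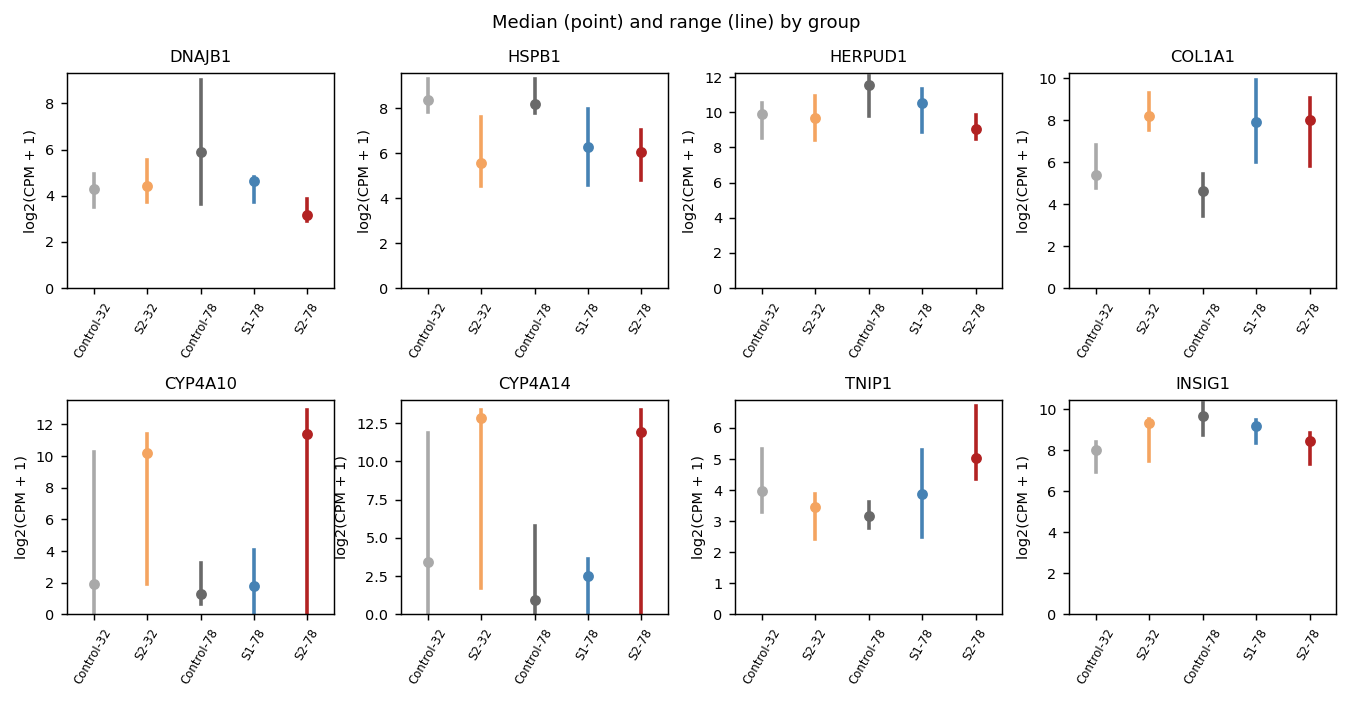
Log2 of CPM plus 1 on the y axis for 8 genes in 5 groups, with a point at the median and a line from the lowest to the highest library (Control-32, S2-32, Control-78 and S1-78, n = 6 each, and S2-78, n = 4). COL1A1 lies above the age-matched controls in S2-32, S1-78 and S2-78, DNAJB1 lies lowest in S2-78 (median 8.12 CPM), and CYP4A10 and CYP4A14 span from 0 to 7776 and 10290 CPM in S2-78.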

How the data were processed

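The authors aligned the reads with Bowtie to mm10 in Partek 10.0.22.0524, per the submitters' processing notes, and deposited raw counts for each gene. The deposited signal values, the authors' normalized and filtered tables, are counts plus 1 divided by a factor for each library, and were used only to choose the libraries and the 2205 genes. In R 4.3.3 the counts were fitted with edgeR 4.0.16 (TMM, quasi-likelihood test, two-sided, Benjamini-Hochberg over all genes tested), with DESeq2 1.42.0 as an alternative, and the code was tested on simulated data. The members and the 46 gene lists were chosen with earlier results of these data known. The list of heat shock factor targets was added after the values were seen. Named genes are the DEGs, the genes the study names for expression, in each list the DEGs and up to 4 others with the smallest unadjusted p, the most abundant member of each marker list, and up to 5 DEGs in each direction of the other comparisons; the text names a part of these. Log2 levels in figures use a pseudocount of 1.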

Additional observations from a re-analysis of the deposited data

Results flagged for a closer look

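In a group of 4 or 6 libraries, a library was singled out when its gap to the nearest other took up an unusually large share of the group's range on the log2(CPM + 1) scale, which chance gives in about 1 of 20 groups, and 75 sets of values were checked. In S2-78 this share was 0.939 for CEL and 0.85 for CELA3B, with mouse 47 the highest, 0.872 for CYP3A11, with mouse 47 the lowest, and 0.86 for GIMAP4, with mouse 45 the highest. In Control-78 it was 0.679 for CYP4A14, with mouse 86 the highest, 0.815 for TMED10, with mouse 85 the lowest, and 0.64 for TRIB1, with mouse 90 the highest.

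The log2 change in S2-78 minus that in S2-32 passed edgeR's test of the difference for 11 genes. It was higher in S2-78 for CELA3B (16.3), NAP1L3 (4.89), TNIP1 (3.59), AXIN1 (2.81), A130071D04RIK (2.77), BIRC3 (2.75) and CRIM1 (2.53). It was lower for CDCA4 (-4.39), DNAJB1 (-4.19), INSIG1 (-2.54) and YTHDF1 (-1.41). Without mouse 47, 0 genes passed, with 208 at an unadjusted p under 0.05.

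The libraries that the authors left out, mice 46 and 48 of S2-78, held markers above the highest control. Their summed levels were 186 and 209 CPM for lymphocyte markers (at most 165 in the controls), 384 and 499 CPM for endothelial markers (at most 290) and 381 and 666 CPM for neural markers (at most 282). Muscle markers summed to 223 CPM in mouse 48 (at most 117). These libraries had 394328 and 539248 counts. Their CPM were scaled with all 78 libraries and those of the controls with the 68, so the levels are not on exactly the same scale. In mice 46 and 48, 3 and 3 of 8 lymphocyte markers and 3 and 2 of 8 endothelial markers had no counts. Of 10 neural markers 4 and 2 had none.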

How the results depend on the processing

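Of 121 genes followed, 118 kept the sign of their log2 fold change under every alternative run. The exceptions were CEBPB (0.53 with all 78 libraries), SERPINA3N (1.19 with log2 total count as a covariate) and CEL (-2.01 without mouse 47, and -2.09 without mice 47 and 90, chosen after seeing the data). The cause was not tested beyond those settings. DEGs of S2-78 against Control-78, 36 with 18 higher and 18 lower, became 0 with only these groups in the model, 1 with the groups at 78 weeks, 14 with all 78 libraries, 97 with DESeq2 (with and without independent filtering, 65 higher and 32 lower) and 119 with the number of genes with a count as a covariate (72 and 47). The split was 31 and 12 with RLE scaling, 29 and 11 with upper quartiles, 28 and 16 with log2 total count, and 19 and 12 after thinning to the smallest total. Leaving out each library gave 22 to 46 DEGs. S2-78 against S1-78 gave 0 DEGs with only these groups or with log2 total count, 4 with DESeq2, and 0 to 6 without each library of S2-78. The difference between the changes gave 51 genes with RLE, 6 with only its groups, 126 with DESeq2, 1 with log2 total count, and 0 to 56 without each S2-78 library. Alternatives chosen after seeing the data gave a difference in mean total count from -2054570 to -1584620 without each library and of -2147750 with all 78, and a difference in genes with a count from -328.833 to -205.833 and of -357.167. Without mouse 45 CEL had 10.29. A robust spread estimate, also added later, gave 35 DEGs, and leaving out mice 47 and 90 gave 39. The cause of these differences was not tested. With 4 S2-78 libraries the smallest log2 difference among DEGs was 0.816 and the median SE over genes was 0.562.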
